A study of Mus musculus with 4 samples.

Results

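The carbonic anhydrases of the kidney and the proximal carriers they work with were described here as a group of 7 genes, Car2, Car4, Car12, Car14, Car15, Slc4a4 and Slc9a3, chosen by name from the 32285 genes listed for every section. All 7 were detected in every section and all 7 passed the filter on low counts. Visium captures polyadenylated RNA of a tissue section on an array of barcoded spots and counts molecules by unique molecular identifiers (UMIs), and each spot can hold several cells of different types. The sections were 10 µm thick and came from the left kidneys of wild-type male C57BL/6J mice aged 7 to 8 weeks. Of the 4 sections analysed, 2 were from normal control kidneys and 2 were from kidneys taken 24 h after both renal pedicles had been clamped for 30 min, called ischemic below. The study used 2 Visium slides with 8 capture areas, and its methods do not say which slide held each section. The labels and methods name neither the mouse of each section nor any sham surgery of the normal mice. The p-values of whole sections therefore measure the spread between sections, which may be technical. Those by kidney zone rest on several sums from each section, which were not independent, and can be too small.

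Carbonic anhydrases interconvert carbon dioxide and bicarbonate. In the proximal tubule, Slc9a3 (the apical sodium-proton exchanger NHE3) secretes acid into the lumen, carbonic anhydrase at the membrane and in the cytosol lets the filtered bicarbonate enter the cell as carbon dioxide, and Slc4a4 (the basolateral sodium-bicarbonate cotransporter NBCe1) returns it to the blood. Car2 is the cytosolic enzyme and is also abundant in intercalated cells of the collecting duct, Car4 and Car15 are anchored to the outer face of the membrane by a lipid tail, and Car12 and Car14 span the membrane with their catalytic part outside.

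The sections held between 25957128 and 44528078 UMIs over 2401 to 2682 tissue spots. Levels are CPM, counts scaled to the library total, with edgeR's TMM factors, which adjust each library for its composition, and were not compared between genes because gene length was not taken into account. The 4 injury genes Havcr1, Lcn2, Krt20 and Vcam1 summed to 17.8 and 23.7 CPM in the normal sections and to 4303 and 4802 CPM in the ischemic sections, and all 4 rose. The 6 proximal tubule markers Lrp2, Cubn, Slc34a1, Slc5a12, Hnf4a and Slc13a3 summed to 3845 and 3230 CPM in normal and to 589 and 555 CPM in ischemic sections, and all 6 fell. In sums over spots, fewer proximal tubule cells and less RNA per cell cannot be told apart, and this holds for every fall given below.

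On GRCm38, the build called mm10 in the submitters' processing notes, GENCODE vM21 places each of the genes on an autosome as protein coding. Car2 and Car14 lie on chromosome 3, at 14886273 to 14900770 and at 95897768 to 95904691, Car4 on chromosome 11 at 84957786 to 84966044, and Car12 on chromosome 9 at 66713686 to 66766845. Car15 lies on chromosome 16 at 17835276 to 17838364, Slc4a4 on chromosome 5 at 88886818 to 89239653, and Slc9a3 on chromosome 13 at 74121457 to 74169442. Car15 overlaps the annotated gene Gm20518 on the same strand, a gene for which no count was used here, so how reads of the overlap were assigned is uncertain. The end of Car14 overlaps the end of Aph1a on the opposite strand. Aph1a was at 56.65 and 53.6 CPM in normal and at 47.5 and 45.8 CPM in ischemic sections, and as no source states whether counting used strand, the values of Car14 carry this uncertainty.

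RefSeq's promoter windows (GRCm38.p6) hold 7 windows for 6 of the genes, with 2 alternative starts for Slc4a4 and none for Car2. The 250 bases before the start are printed for Car4, Car12, Car14 and Slc9a3, genes of the group that fell over whole sections and whose windows lie ahead of the GENCODE gene model except for the last 6 bases of Car14. Capitals mark a match to any motif searched, which in these windows are all cores of the hypoxia response element, ACGTG and GCGTG on either strand, a motif added after the windows had been read.
Car4, chr11:84957504-84957753, plus strand: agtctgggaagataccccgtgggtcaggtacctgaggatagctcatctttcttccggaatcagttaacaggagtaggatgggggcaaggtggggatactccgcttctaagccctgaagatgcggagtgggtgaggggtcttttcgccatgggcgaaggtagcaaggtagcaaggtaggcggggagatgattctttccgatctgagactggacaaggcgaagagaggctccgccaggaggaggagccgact
Car12, chr9:66713436-66713685, plus strand: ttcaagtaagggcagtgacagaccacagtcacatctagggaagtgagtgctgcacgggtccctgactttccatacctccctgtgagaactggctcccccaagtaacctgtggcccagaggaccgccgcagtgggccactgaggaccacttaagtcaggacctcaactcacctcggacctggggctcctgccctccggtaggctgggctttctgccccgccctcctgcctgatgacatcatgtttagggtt
Car14, chr3:95904686-95904935, minus strand: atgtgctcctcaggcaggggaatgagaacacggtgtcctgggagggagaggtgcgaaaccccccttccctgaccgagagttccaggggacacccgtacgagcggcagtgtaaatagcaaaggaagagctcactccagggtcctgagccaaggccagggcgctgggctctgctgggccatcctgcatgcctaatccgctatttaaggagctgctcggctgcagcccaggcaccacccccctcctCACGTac
Slc9a3, chr13:74121163-74121412, plus strand: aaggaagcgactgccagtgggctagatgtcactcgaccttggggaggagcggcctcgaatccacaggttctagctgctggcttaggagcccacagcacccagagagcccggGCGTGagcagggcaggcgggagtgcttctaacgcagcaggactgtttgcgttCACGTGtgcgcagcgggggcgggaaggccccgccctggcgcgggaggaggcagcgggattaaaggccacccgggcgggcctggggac
Either core was present in 3 of the 7 windows, those of Car14, Slc9a3 and the first Slc4a4 start, against 38.6% of all 32851 windows of the same length. The CACGTG of Slc9a3 reads as ACGTG on both strands and holds 2 overlapping matches. The CCAAT box, searched as CCAAT on both strands, was present in 2 windows, those of Car15 and the second Slc4a4 start, against 33.8% of all windows. The TATA box (TATAAA, 12.4% of all windows), the HNF1 half-site (GTTAAT, 6.43%) and an HNF4 site (CAAAGTCCA, 0.384%) were in none of the 7. No match was taken as a binding site.

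In the normal sections, the group was a cortical group with 1 exception. Each spot was assigned from marker genes of the spot and its up to 6 neighbours to 1 of 5 zones (cortex, outer stripe and inner stripe of outer medulla, inner medulla, pelvis), and none of the 7 genes was used as a marker. Within sections, 6 of the 7 genes were lower in the outer stripe than in the cortex (adjusted p under 0.05 by edgeR's quasi-likelihood test), where 22.8% of the 14174 genes tested were called and 10.3% were called lower. In the inner stripe all 7 were called, 6 lower and Slc9a3 higher, against 29.2% of all genes called and 14.2% called higher. In the inner medulla all 7 were lower, against 40.2% of all genes called and 20.6% called lower. The normal spots called inner medulla also held adipocyte, red cell and urothelial markers, as given below. The median difference of the 7 genes from the cortex was -1.58, -1.24 and -1.61 on the log2 scale in the outer stripe, inner stripe and inner medulla, beside medians of 0.02, 0.01 and 0.02 over all genes.

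Car12 had the steepest step out of the cortex, at 118 and 129 CPM in the cortex of normal sections 1 and 2 and at only 19.6 and 24.4 CPM next to it, in the outer stripe. The difference of the outer stripe from the cortex was -2.49 on the log2 scale (standard error 0.13, adjusted p = 2.1e-11 by edgeR's quasi-likelihood test). Its levels in the outer stripe, inner stripe and inner medulla overlapped between sections, so only the cortex at the top and the pelvis at the bottom of its order stood clear. Slc4a4 was the only one of the genes whose 5 zones formed an order without overlap in the normal sections. From the top it was at 235 and 265 CPM (cortex), 77.3 and 90.6 CPM (outer stripe), 66.0 and 65.9 CPM (inner medulla), 37.5 and 33.2 CPM (inner stripe) and 27.1 and 29.2 CPM (pelvis). The place of the inner medulla in this order may reflect mixed spots. They held 1383 and 981 CPM of the 6 cortex markers, against 777 and 841 CPM in the inner stripe, and this was not tested. Car14 was at 91.1 and 96.7 CPM in the cortex, and its inner medulla and outer stripe overlapped.

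Car4 was at 207 and 177 CPM in the normal cortex and at 71.4 and 104 CPM in the inner stripe, which overlapped the outer stripe at 68.3 and 87.6 CPM. Car2 was at 355 and 385 CPM in the normal cortex and at 95.5 and 108 CPM in the outer stripe. Its inner stripe, inner medulla and outer stripe overlapped in turn. The 6 intercalated cell markers, the cells in which Car2 is known to be abundant outside the proximal tubule, summed to 575 and 636 CPM in the normal cortex, with 113 and 109 CPM for the outer stripe and 238 and 289 CPM for the inner.

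Car15 was at 209 and 200 CPM in the normal cortex, while the outer stripe held 89.9 and 82.5 CPM, the inner stripe 97.5 and 75.8 CPM and the inner medulla 31.1 and 25.5 CPM. The outer and inner stripe overlapped. When each spot was assigned without its neighbours, its inner stripe no longer lay below the cortex, with a difference of 0.18 (adjusted p = 0.409 by edgeR's quasi-likelihood test).

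Slc9a3 had its highest level outside the cortex. It was at 103 and 161 CPM in the inner stripe and at 83.3 and 74.6 CPM in the cortex, so both inner stripe values lay above both cortical ones. The inner stripe was higher by 0.69 on the log2 scale (standard error 0.16, adjusted p = 0.0023 by edgeR's quasi-likelihood test). The thick ascending limb also uses this exchanger. Its 4 markers Slc12a1, Umod, Kcnj1 and Cldn16 summed to 11512 and 12424 CPM in the inner stripe against 2420 and 2017 CPM in the cortex. Slc12a1 and Umod were also used to assign spots to the inner stripe, so a high sum there was partly set by the assignment. The part of these markers in the level of Slc9a3 was not tested. Slc9a3 was at 63.1 and 67.9 CPM in the outer stripe (difference -0.28, adjusted p = 0.218 by edgeR's quasi-likelihood test), which was called without normal section 2 (-0.40, adjusted p = 0.0028). Its lower level in the inner medulla (-0.63, adjusted p = 0.0268) was not called without normal section 1 (-0.30, adjusted p = 0.182) and was called in 9 of 14 alternatives.

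**Figure D1:**
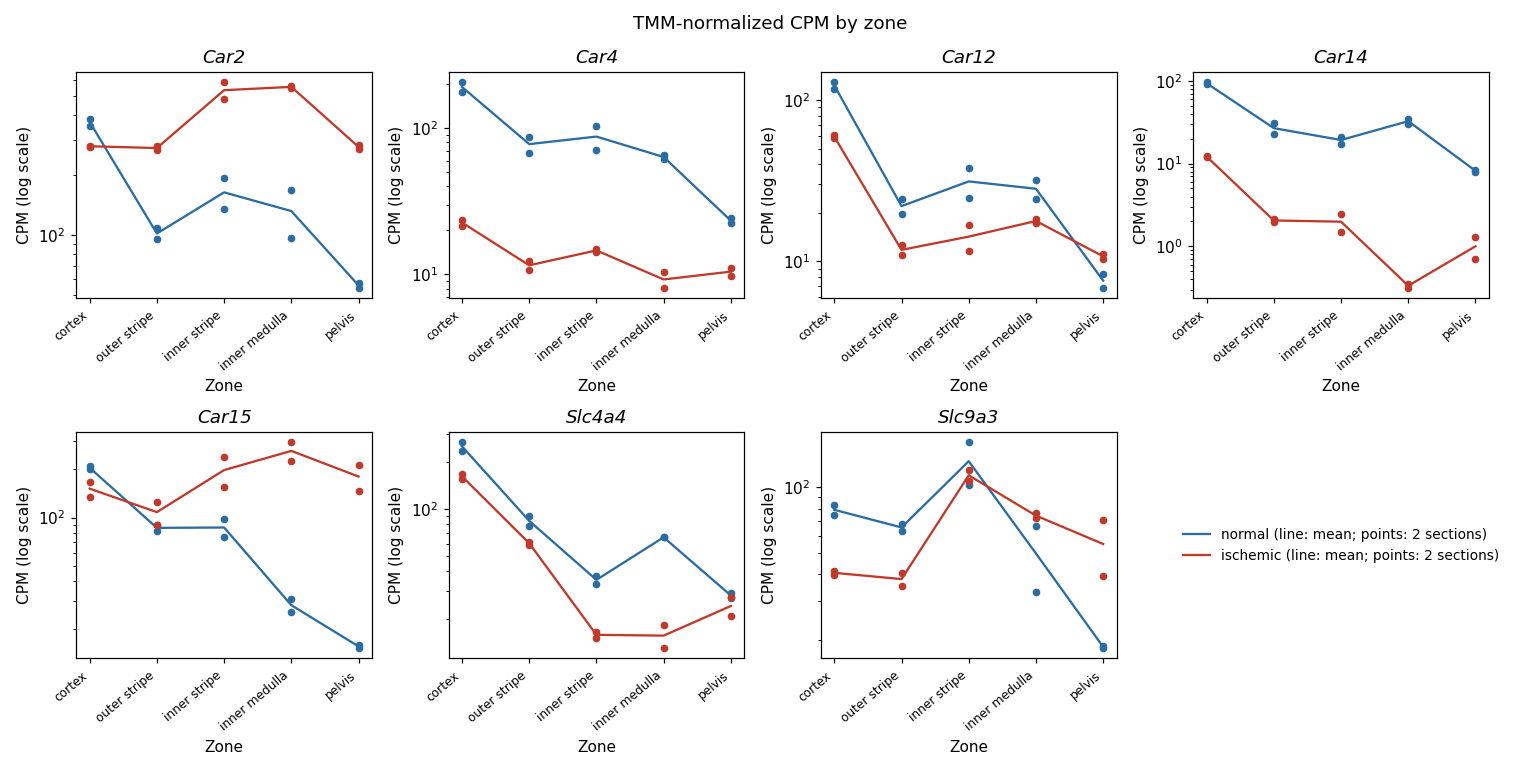
TMM-normalized CPM (log axis) of each of the 7 genes by zone, with normal sections in blue and ischemic sections in red, a point per section and a line through the means of 2 sections. Car4 and Car14 in the ischemic sections lay below the normal sections in every zone, while Car2 and Car15 lay above them in the inner stripe, inner medulla and pelvis.

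Over whole sections, 5 of the 7 genes fell after ischemia and 2 rose. Of the 15305 genes tested, 60.6% were called, 31.0% higher and 29.7% lower, so a call by itself was the common outcome. The groups did not overlap for any of the 7 genes, which was also so for 82.2% of all genes tested, 43.0% with both ischemic sections higher and 39.2% with both lower. The median difference of the 7 genes was -0.82 on the log2 scale, beside 0.04 over all genes.

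The membrane-bound enzymes Car14 and Car4 had the largest falls. Car14 had 1771 and 1388 counts in the normal sections and 176 and 136 counts in the ischemic sections. This gave 48.0 and 50.3 CPM in normal and 5.18 and 4.75 CPM in ischemic sections. Both ischemic values lay far below both normal ones, and the level fell 9.90-fold (log2 difference -3.30, standard error 0.11, adjusted p = 9.7e-08 by edgeR's quasi-likelihood test). Car4 was at 117.5 and 108 CPM in normal and at 14.9 and 14.2 CPM in ischemic sections. It fell 7.76-fold (log2 difference -2.96, standard error 0.11, adjusted p = 1.5e-07 by edgeR's quasi-likelihood test).

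Car12, Slc4a4 and Slc9a3 fell less. Car12 was at 59.1 and 61.9 CPM in normal and at 28.4 and 26.2 CPM in ischemic sections, a log2 difference of -1.15 with a standard error of 0.10 (adjusted p = 1.1e-05 by edgeR's quasi-likelihood test). Slc4a4 was at 128 and 136 CPM in normal and at 75.8 and 73.6 CPM in ischemic sections, a log2 difference of -0.82 with a standard error of 0.11 (adjusted p = 0.00017). The ratio of the ischemic to the normal mean was 0.567 for this basolateral exit route. Slc9a3, the apical entry step, was at 67.2 and 69.6 CPM in normal and at 54.5 and 51.5 CPM in ischemic sections, a log2 difference of -0.37 with a standard error of 0.10 (adjusted p = 0.0090). The fall of Slc9a3 was not called without ischemic section 1 (adjusted p = 0.118) or without ischemic section 2 (adjusted p = 0.212). Scaled by library totals alone, which moved the median of all genes to 0.31, Slc9a3 was at -0.10 (adjusted p = 0.519).

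Car2 and Car15 rose. Car2 was at 197 and 211 CPM in normal and at 315 and 340 CPM in ischemic sections, a ratio of 1.60 (log2 difference 0.68, standard error 0.12, adjusted p = 0.0013 by edgeR's quasi-likelihood test). Without ischemic section 2 the log2 difference was 0.64 and was not called (adjusted p = 0.0643). Car15 was at 127 and 110 CPM in normal and at 146 and 152 CPM in ischemic sections, a log2 difference of 0.33 with a standard error of 0.12 (adjusted p = 0.0362). The call of Car15 was lost without ischemic section 1 (adjusted p = 0.22), without ischemic section 2 (adjusted p = 0.303) and with DESeq2 (adjusted p = 0.0789), and was kept in 7 of 12 alternatives. Without the spots of the inner medulla and pelvis, an alternative chosen after seeing the data, Car15 was at 0.04 (adjusted p = 0.75) and Car2 at 0.47 (adjusted p = 0.0037).

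**Figure D2:**
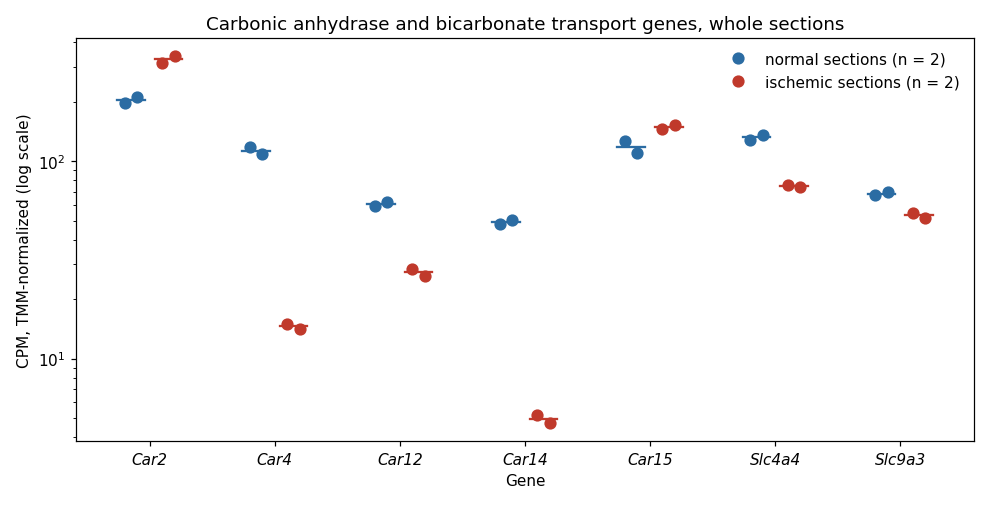
TMM-normalized CPM (log axis) of the 7 genes over whole sections, with 1 point per section and a bar at the mean of the 2 sections of a condition. The ischemic points lay above the normal points for Car2 and Car15 and below them for the other 5 genes.

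The zones of the 2 conditions did not hold the same tissue in the inner medulla and pelvis, which bears on the values there. The spots called inner medulla in normal section 1 held 6275 CPM of 4 adipocyte markers and 51208 CPM of 5 red cell markers, and those of normal section 2 held 946 and 14260 CPM, against 276 and 225 CPM of the adipocyte markers and 452 and 867 CPM of the red cell markers in the ischemic sections. The 6 urothelial markers summed to 976 and 1969 CPM in the normal and to 5.35 and 52.5 CPM in the ischemic inner medulla. The 4 principal cell markers summed to 3763 and 4396 CPM in normal and to 886 and 1526 CPM in ischemic spots there. The 4 thick limb markers there went from 2694 and 4057 to 4445 and 4234 CPM. Spots called pelvis held 4995 and 5426 CPM of the urothelial markers in normal and 658 and 920 CPM in ischemic sections. In the pelvis the adipocyte markers went from 3211 and 1209 to 176 and 124 CPM, and the thick limb markers from 1472 and 2262 to 3340 and 2685 CPM. Tissue composition and ischemia cannot be told apart in these zones. The stripes may differ too. In the outer stripe, its 5 zone markers summed to 4724 and 3858 CPM in normal and to 487 and 514 CPM in ischemic spots. The 5 inner medulla zone markers summed to 1389 and 1185 CPM in the normal and to 6612 and 6533 CPM in the ischemic outer stripe. In ischemic sections their sum was thus higher there than in the inner medulla itself, at 3395 and 3508 CPM. Cryab made up 2343 and 2298 of their 3005 and 3119 CPM over whole ischemic sections. In the inner stripe, the 6 proximal tubule markers went from 1551 and 1183 to 96.3 and 88.3 CPM. Inner stripe spots made up 14.1% and 12.8% of the normal sections and 17.9% and 20.9% of the ischemic ones. Whether the stripes held like tissue in both conditions was not tested.

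Car4 fell in all 5 zones. Its cortical level went from 207 and 177 CPM in normal sections to 23.7 and 21.6 CPM in ischemic sections, a log2 difference of -3.08 with a standard error of 0.17 (adjusted p = 5.1e-11 by edgeR's quasi-likelihood test). The log2 differences of the outer and inner stripe were -2.75 and -2.57, and those of the inner medulla and pelvis -2.78 and -1.15. The pelvic fall was not called without ischemic section 1 (adjusted p = 0.0928) or without ischemic section 2 (adjusted p = 0.133). Car14 also fell in every zone, with a cortical level of 91.1 and 96.7 CPM in normal and 12.4 and 12.0 CPM in ischemic sections (log2 difference -2.94). The outer stripe went from 23.0 and 30.7 to 2.16 and 1.94 CPM (-3.68) and the inner stripe from 17.5 and 21.1 to 1.49 and 2.47 CPM (-3.25). In the ischemic inner medulla it had 1 count in each section, against 32 and 59 counts in the normal sections, and in the ischemic pelvis 1 and 2 counts against 12 and 14. No fold is given there. The sum of the 6 proximal tubule markers went from 6800 and 5923 to 1286 and 1323 CPM in the cortex. There 5 were called lower and 1 was not called, against 19.9% of all genes called lower. In the outer stripe the sum went from 2594 and 2690 to 406 and 430 CPM and all 6 were called lower, against 29.5%. The markers fell unequally, over whole sections 12.3-fold for Slc34a1 and 2.13-fold for Hnf4a. Their part in the falls of both enzymes was not tested.

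Across the 7 genes, 5 were called in the cortex, all lower, against 40.1% of all genes (20.2% higher, 19.9% lower). In the outer stripe 6 were called (1 higher, 5 lower) against 56.9% of all genes (27.4% higher, 29.5% lower). In the inner stripe 6 were called (2 higher, 4 lower) against 48.2% of all genes (22.2% higher, 25.9% lower). The inner medulla had 5 calls (2 higher, 3 lower) against 35.1% (13.9% higher, 21.2% lower), and the pelvis 5 (3 higher, 2 lower) against 25.2% (10.7% higher, 14.6% lower). The median difference of the 7 genes was -0.96, -0.78, -1.10, -0.63 and 0.51 in these zones in the same order, beside medians between -0.07 and 0.00 over all genes. No gene of the group rose in the cortex, and 3 did in the pelvis, where the tissue differed between the conditions as given above.

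Car12 fell in the cortex, from 118 and 129 to 60.6 and 58.1 CPM (log2 difference -1.05, adjusted p = 1.4e-05 by edgeR's quasi-likelihood test), and in both stripes, the outer (-0.89) and the inner (-1.10). Scaled by library totals, the outer stripe value of Car12 was -0.50 and was not called (adjusted p = 0.109). In the inner medulla its difference of -0.63 was not called (adjusted p = 0.0735), but was called without normal section 2 (-0.85, adjusted p = 0.0322). In the pelvis it had 12 and 12 counts in normal and 15 and 17 counts in ischemic sections, with a difference of 0.51 that was not called (adjusted p = 0.408).

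Slc4a4 fell in every zone but the pelvis. It went from 235 and 265 to 156 and 166 CPM in the cortex (log2 difference -0.63, standard error 0.13, adjusted p = 0.00073 by edgeR's quasi-likelihood test) and from 77.3 and 90.6 to 59.1 and 61.9 CPM in the outer stripe (-0.47, standard error 0.14, adjusted p = 0.0061). The inner stripe was at -1.17 and the inner medulla at -2.07, while the pelvis at -0.22 was not called (adjusted p = 0.508) and its sections overlapped. In the inner medulla spots the 6 cortex markers went from 1383 and 981 to 109 and 87.0 CPM, and their part was not tested. The change of the outer stripe of Slc4a4 relative to its cortex was not called, with values from -0.068 to 0.39 over 14 alternatives. The cortical call was lost without ischemic section 1 (adjusted p = 0.0715) and with library totals (-0.42, adjusted p = 0.065), and that of the outer stripe without either ischemic section (adjusted p = 0.123 and 0.0752). The outer stripe call of Slc4a4 was kept in 10 of 15 alternatives, and library totals, which moved the median of all genes there to 0.39, gave -0.084 (adjusted p = 0.708).

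Slc9a3 fell in the cortex and the outer stripe, and was not called in the inner stripe, its site of highest level. It went from 83.3 and 74.6 to 41.4 and 39.7 CPM in the cortex (log2 difference -0.96, standard error 0.22, adjusted p = 0.0016 by edgeR's quasi-likelihood test) and from 63.1 and 67.9 to 40.5 and 35.4 CPM in the outer stripe (-0.78, adjusted p = 0.0053). Without ischemic section 1 or 2 neither was called (adjusted p between 0.0529 and 0.114), nor with library totals (-0.74, adjusted p = 0.0557, for the cortex and -0.39, adjusted p = 0.268, for the outer stripe zone). In the inner stripe it was at 103 and 161 CPM in normal and 120 and 107 CPM in ischemic sections, which overlapped (-0.20, adjusted p = 0.468). The 4 thick limb markers were at 11512 and 12424 CPM in normal and 5762 and 5844 CPM in ischemic inner stripe, and their part was not tested. The difference of Slc9a3 was -0.48 and called without normal section 1 (adjusted p = 0.0051) and 0.14 without normal section 2. In the pelvis it rose from 18.8 and 18.3 to 70.8 and 39.2 CPM (1.56, adjusted p = 0.0021), a call lost without ischemic section 1 (adjusted p = 0.133). In the inner medulla its difference of 0.52 was not called (adjusted p = 0.146), but was without normal section 2 (1.16, adjusted p = 0.0014).

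Car2 rose in every zone but the cortex. In the outer stripe it went from 95.5 and 108 CPM to 280 and 267 CPM, a log2 difference of 1.43 with a standard error of 0.20 (adjusted p = 4.6e-06 by edgeR's quasi-likelihood test). In the inner stripe it went from 135 and 192 CPM to 482 and 587 CPM, a difference of 1.71 (standard error 0.20, adjusted p = 9.1e-07). The inner medulla was higher by 2.05 and the pelvis by 2.31 on the log2 scale, zones in which the tissue differed between the conditions as given above. In the cortex it was at 355 and 385 CPM in normal and at 277 and 281 CPM in ischemic sections, so that both ischemic values lay lower, but the difference of -0.41 was not called (adjusted p = 0.100). Of the 15 alternatives, 8 called this difference and 7 did not. It was called without normal section 1 (-0.55, adjusted p = 7.3e-05), without normal section 2 (-0.35, adjusted p = 0.0049) and with DESeq2 (-0.48, adjusted p = 0.0359). The order of the zones of Car2 was thus changed, with the cortex clear at the top in normal sections and the inner medulla and inner stripe, which overlapped, at the top in ischemic sections. The 6 intercalated cell markers summed to 113 and 109 CPM in the normal and 129 and 82.5 CPM in the ischemic outer stripe. For the inner stripe the sums were 238 and 289 against 194 and 270 CPM. Their sum for the inner medulla was 63.2 and 188 CPM in normal and 357 and 353 CPM in ischemic sections. Atp6v1g3 weighs most in such sums, with 221 and 224 of 307 and 319 CPM over whole normal sections. Taken singly, the markers were split. After ischemia 1 was called higher and 3 lower for the outer stripe. For the inner stripe 2 were higher and 2 lower, and for the inner medulla 3 were higher and 2 lower. The part of these markers in the rise of Car2 was not tested.

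Car15 was not called in the cortex (209 and 200 against 168 and 135 CPM, difference -0.43, adjusted p = 0.115) or in the outer stripe (89.9 and 82.5 against 126 and 90.4 CPM, difference 0.33, adjusted p = 0.208 by edgeR's quasi-likelihood test). The cortical value was called without normal section 1 (-0.48, adjusted p = 0.0287) and without normal section 2 (-0.46, adjusted p = 0.0272), and in 4 of 15 alternatives in all. The outer stripe value was called in 3 of 15 alternatives, the largest with library totals (0.73, adjusted p = 0.0063). In the inner stripe Car15 rose from 97.5 and 75.8 to 156 and 240 CPM (1.19, standard error 0.22, adjusted p = 0.00022). The ischemic sections differed from each other there, and with each spot assigned without its neighbours the difference was 0.05 (adjusted p = 0.86). Its inner medulla rose from 31.1 and 25.5 to 227 and 295 CPM (3.22) and its pelvis from 15.3 and 16.0 to 147 and 214 CPM (3.52), zones in which the tissue differed between the conditions as given above.

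**Figure D3:**
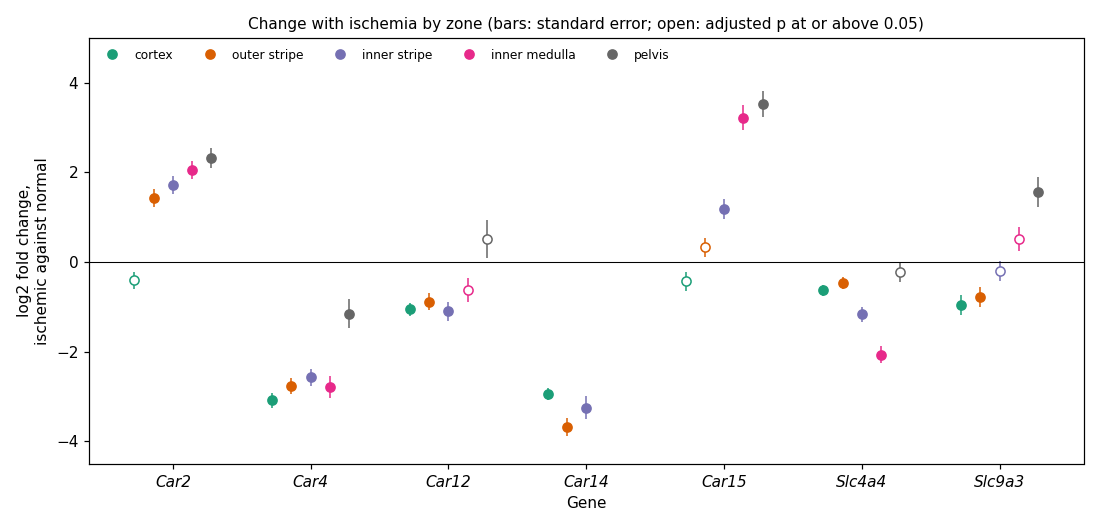
Log2 fold change of ischemic against normal sections for each gene, 1 point per zone, with bars of 1 standard error, filled where the adjusted p was under 0.05. Car14 is not drawn in the inner medulla and pelvis, where the ischemic sections had 1 or 2 counts. Car2 and Car15 lie below 0 in the cortex and above 0 in the 4 other zones.

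Whether the step from the cortex to the outer medulla changed with ischemia was tested directly, within sections. For the outer stripe, 3 of the 7 genes were called (2 higher, 1 lower) against 21.5% of all genes (8.06% higher, 13.5% lower). For the inner stripe 4 were called (3 higher, 1 lower) against 19.0% (5.15% higher, 13.9% lower). The medians of the 7 genes were 0.19 and 0.53 on the log2 scale, beside -0.02 and -0.03 over all genes. Car2 moved most. Its outer stripe rose relative to its cortex by 1.84 on the log2 scale (standard error 0.18, adjusted p = 5.7e-07 by edgeR's quasi-likelihood test) and its inner stripe by 2.13 (standard error 0.18, adjusted p = 4.9e-08). Both calls of Car2 held under each of the 14 alternatives run, from 1.62 to 2.06 for the outer and from 2.00 to 2.33 for the inner stripe. Car15 rose relative to the cortex by 0.76 in the outer stripe (adjusted p = 0.0375) and by 1.60 in the inner stripe (adjusted p = 0.00017). The first was lost without ischemic section 1 (adjusted p = 0.0956) and with DESeq2 (adjusted p = 0.100), and the second was 0.42 with each spot assigned without its neighbours (adjusted p = 0.202).

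The other calls of this kind were near the threshold. Car14 was at -0.73 in the outer stripe (adjusted p = 0.0324 by edgeR's quasi-likelihood test), which was not called without normal section 2 (adjusted p = 0.109) or without ischemic section 1 (0.227) or 2 (0.244). The call of Car14 was kept in only 4 of the 14 alternatives, with values from -0.93 to 0.15. Slc4a4 was at -0.55 in the inner stripe (adjusted p = 0.0379), which was not called without normal section 1 (-0.24, adjusted p = 0.517), ischemic section 1 (0.164) or ischemic section 2 (-0.42, adjusted p = 0.392). The call of Slc4a4 was likewise kept in 4 of 14 alternatives, with values from -0.70 to -0.24. Slc9a3 was at 0.79 in the inner stripe (adjusted p = 0.018), which was not called without ischemic section 1 (0.257) or 2 (0.176) and was kept in 10 of 14 alternatives. Car4 was not called in either stripe (0.34, adjusted p = 0.305, and 0.53, adjusted p = 0.133), but was without normal section 2 (0.61, adjusted p = 0.0025, and 0.89, adjusted p = 0.00011). Car12 was called in neither (0.17, adjusted p = 0.607, and -0.04, adjusted p = 0.939).

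**Figure D4:**
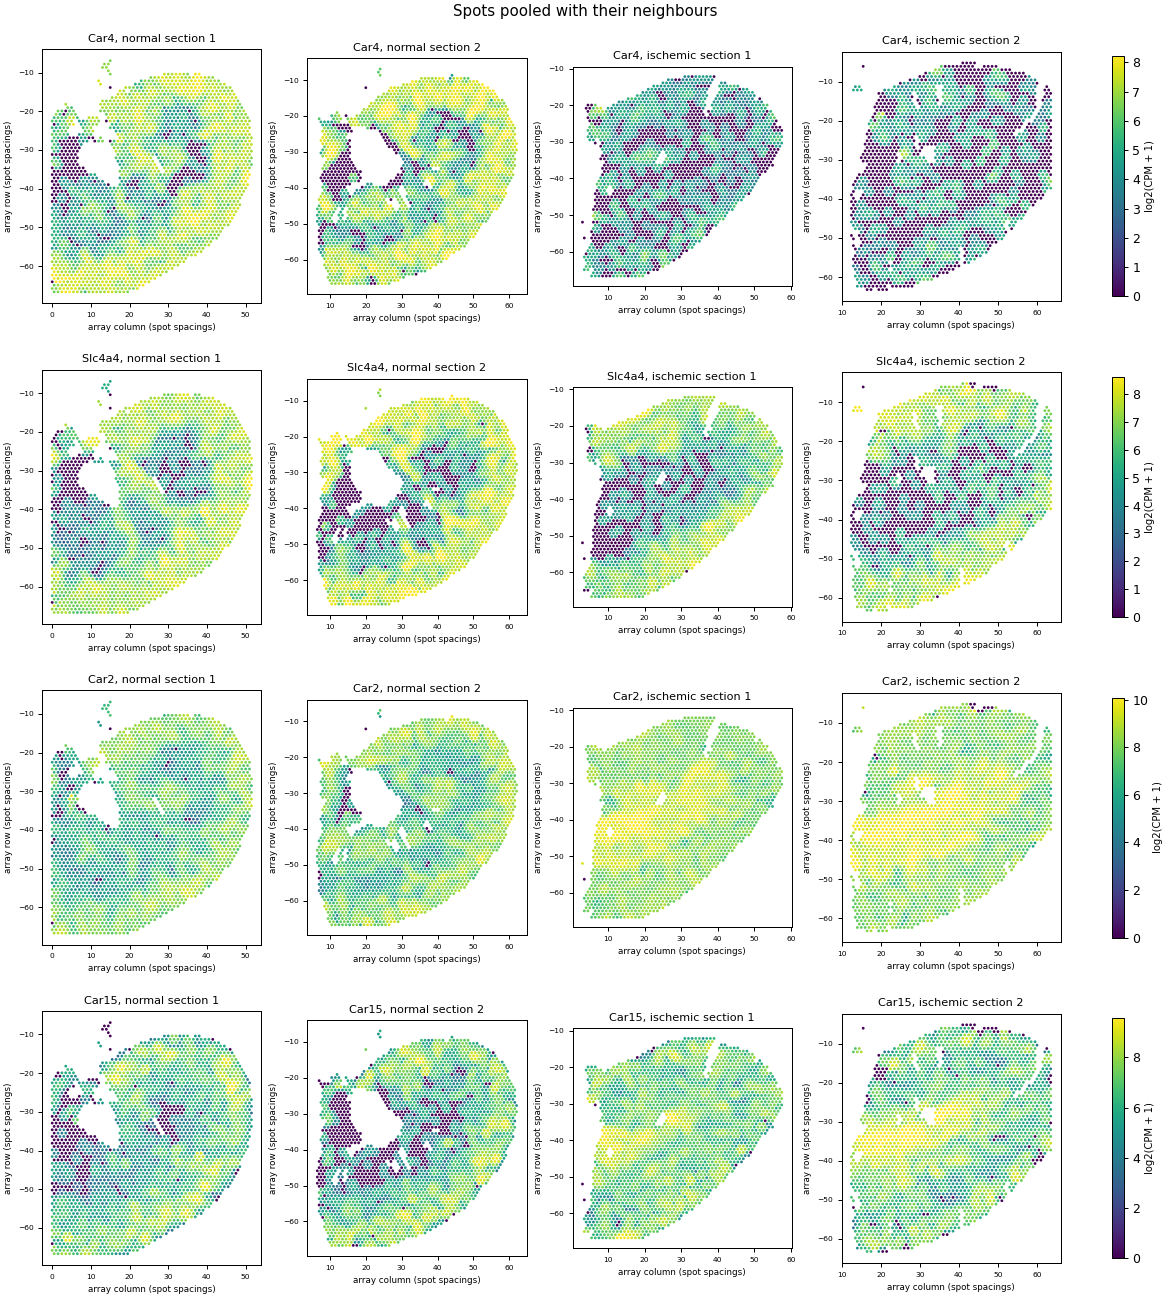
Maps of the 4 sections, 1 dot per tissue spot at its place on the array (axes in spot spacings), coloured by log2(CPM + 1) of the spot pooled with its neighbours, for Car4, Slc4a4, Car2 and Car15, with 1 colour scale per gene. Car4 and Slc4a4 follow the cortical rim in normal sections, Car4 is sparse throughout the ischemic sections while Slc4a4 keeps its rim, and Car2 and Car15 are brightest in the interior of the ischemic sections.

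Across the spots of a section, pairs of the group were compared by the correlation of their pooled levels. These correlations are descriptions over spots that share a library, depth and neighbours, and carry no p. Car2 and Slc4a4 had Pearson's r of 0.54 and 0.38 in the normal sections and of -0.44 and -0.35 in the ischemic sections. Car14 and Slc4a4 had r of 0.70 and 0.58 in normal and of 0.42 and 0.31 in ischemic sections. Car2 and Car15 had r of 0.37 and 0.29 in normal and of 0.39 and 0.51 in ischemic sections. Sparse counts lower r, and Car4 and Car14 were sparse in ischemic sections.

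Among 5383 genes with at least 500 counts in each section, the 3 whose pattern over spots was most like each gene of the group were listed per condition, by the mean r of 2 sections. Slc4a4 was most like Gpx3, Miox and Slc34a1 in normal sections (r of 0.83, 0.80 and 0.80), and Gpx3 stayed first in ischemic sections (0.76), followed by Spink1 and Dbi. Gpx3 is a secreted peroxidase and Slc34a1 is the phosphate carrier of the proximal tubule. In normal sections the genes most like Car14 included Slc34a1 and Gpx3 (0.73 and 0.71), those most like Car4 included Slc34a1 and Cyp4b1 (0.66 and 0.66), and Car12 was most like Ftl1, Slc34a1 and Gpx3 (0.68 to 0.67). In ischemic sections the highest r was 0.31 for Car4 (Fxyd2) and 0.49 for Car12 (Pdzk1ip1), and the genes most like Car14 included Dbi (0.46) and Gpx3 (0.45).

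Of the 7 genes, Slc4a4 and Car14 had a gene (Gpx3) on the list of both conditions, and the other 5 had none. Car2 was most like Ldhb, Car12 and Ftl1 in normal sections (0.63 to 0.61) and like Spp1, Tsc22d1 and Mt1 in ischemic sections (0.71 to 0.68). Car15 was most like Tmem52b, Akr1a1 and Ndrg1 in normal sections (0.66 to 0.64) and like Aqp2, Krt7 and Ly6e in ischemic sections (0.59 to 0.57), where Aqp2 is the water channel of principal cells. Slc9a3 was most like Fabp3, Atp5b and Kcnj1 in normal sections (0.65 to 0.59), of which Kcnj1 is the potassium channel of the thick limb, and like Tsc22d1, Spp1 and Mrps6 in ischemic sections (0.49 to 0.47).

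Related genes were taken from lists by family. Of 11 other carbonic anhydrases, 8 were tested over whole sections, of which 2 rose, 4 fell and 2 were not called, against the 60.6% of all genes called (31.0% higher, 29.7% lower), with a median of -0.71 beside 0.04 over all genes. The counts of the lists that follow stand against the same shares and median, and no list was tested against them. Car13, a cytosolic enzyme, rose from 1.46 and 1.56 to 10.2 and 9.67 CPM (2.72, adjusted p = 2.1e-06 by edgeR's quasi-likelihood test). Car5b, a mitochondrial enzyme, rose from 28.9 and 24.0 to 50.7 and 49.7 CPM (0.92). Car9, known as a hypoxia-inducible enzyme, fell from 304 and 196 counts to 44 and 32 counts (log2 difference -2.66, adjusted p = 6.0e-06). Car7 fell by 1.55 on the log2 scale, and Car5a had 82 and 27 counts in normal and 2 and 0 counts in ischemic sections. Car3, an enzyme abundant in fat and muscle, fell from 142 and 72.2 to 2.77 and 2.79 CPM. The 4 adipocyte markers summed to 666 and 395 CPM in normal and to 207 and 198 CPM in ischemic sections. Of these, Adipoq was at 18.5 and 7.61 against 0.0883 and 0.105 CPM, and Cfd at 264 and 104 against 0.265 and 0.279 CPM. In the outer stripe the sum was 208 and 220 against 268 and 254 CPM, and none of the 4 was called. The part of these markers in the fall of Car3 was not tested.

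Of 14 other bicarbonate and anion transporters of the Slc4 and Slc26 families, 12 were tested, of which 3 rose, 5 fell and 4 were not called, against 60.6% of all genes called (median -0.35). Slc4a1, the anion exchanger of red cells and of acid-secreting intercalated cells, fell from 18.0 and 21.7 to 1.21 and 1.19 CPM (-4.05, adjusted p = 2.2e-07 by edgeR's quasi-likelihood test). The 5 red cell markers fell beside it, from 10748 and 9074 to 699 and 1466 CPM, and their part in its fall was not tested. Slc26a4, the exchanger of bicarbonate-secreting intercalated cells, fell from 21.8 and 24.5 to 8.89 and 6.53 CPM (-1.58), and Slc26a1 from 50.8 and 42.5 to 20.5 and 18.9 CPM (-1.24). Slc4a7, a sodium-bicarbonate cotransporter, rose from 4.34 and 4.28 to 9.22 and 9.42 CPM (1.11), and Slc4a11 rose by 1.02. Slc4a2, a widely expressed anion exchanger, was at 42.5 and 44.7 against 50.8 and 47.0 CPM and was not called (0.17, adjusted p = 0.157).

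Of the 8 other sodium-proton exchangers, all were tested, and 2 rose, 4 fell and 2 were not called, against 60.6% of all genes called (median -0.45). Slc9a8 fell from 321 and 242 to 36.3 and 34.8 CPM (-2.99, adjusted p = 8.3e-07 by edgeR's quasi-likelihood test), and Slc9a5 rose from 30 and 22 counts to 88 and 58 counts (1.52, adjusted p = 0.0011). Of 6 partners of Slc9a3, 5 were tested, of which 2 rose, 2 fell and 1 was not called (median -0.04). The scaffold genes Pdzk1 and Slc9a3r1 fell by 2.16 and 1.17 on the log2 scale, while Ezr, which links such scaffolds to actin, rose from 216 and 188 to 328 and 322 CPM (0.68) and Chp1 rose by 0.64. Of 5 genes of proximal ammonia formation and citrate uptake, 3 fell, 1 rose and 1 was not called (median -0.79). Pck1, which makes glucose from the carbon left by glutamine, fell from 654 and 563 to 375 and 328 CPM (-0.79), the citrate carrier Slc13a2 fell by 2.11 and the glutamine carrier Slc38a3 by 1.12.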

How the data were processed

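Visium libraries of 2 normal and 2 ischemic kidney sections were used. The authors processed the reads with Space Ranger 1.3.0, per the file headers, on mm10, per the labels, and the deposited UMI counts, raw and per tissue spot, were used without rounding or change. Gene positions came from GENCODE vM21, matched by identifier for 32235 of 32285 genes (99.85%). Groups came from the sample labels, and the slide of a section was not used.

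Counts were summed over each section and over each of its zones of 20 or more spots. Sums were tested with edgeR 4.0.16 in R 4.3.3, using TMM scaling, the filterByExpr filter and the quasi-likelihood test, with p-values adjusted by Benjamini and Hochberg's method over all genes tested and a threshold of 0.05. Zones were scored as log2(CPM + 1) of marker lists, standardised within the section, with the highest of 4 scores taken. The cortex list was Slc5a2, Slc5a12, Slc34a1, Slc22a6, Slc22a8 and Slc12a3, that of the outer stripe Slc7a13, Cyp7b1, Serpina1f, Slc22a13 and Atp11a, that of the inner stripe Slc12a1, Umod, Cldn10 and Ptger3, and that of the inner medulla Slc14a2, Akr1b3, Cryab, Aqp2 and Fxyd4. Pelvis spots held at least 10 counts of Upk1a, Upk1b, Upk2, Upk3a, Krt5 and Psca and ranked in the top 5% of their section. The model over zones had a group per condition and zone, which shared 1 estimate of the spread, and comparisons between zones had the section as a block. Ischemic against normal by zone had no such block, so the zone sums of a section were treated as independent. No p-value came from spots.

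The genes, lists and tests were chosen with earlier results of these data known. The genes named were the 7 genes, the listed families, and the 3 genes most like each, of which some are not reported here. Of the promoter motifs, the hypoxia response element core was added after the windows had been read. Other settings were DESeq2 1.42.0, other scalings, filters and zone rules, and each section left out. On simulated data with 200 genes changed 2-fold, the test recovered 149 with 18 false calls among 14836 genes for whole sections, 135 with 13 among 13883 for the cortex, 136 with 11 among 12771 for the outer stripe against the cortex in normal sections, and 56 with 4 among 13849 for the change of that step with ischemia. The simulated libraries were drawn independently of each other, with the spread fitted to these data and far fewer genes changed than were called here. They therefore do not give the error rate of the tests on the real sections. Sections held 25957128 to 44528078 UMIs, zone sums fewer, and the SD of the log2 difference between sections over genes was 0.26 for the normal and 0.15 for the ischemic pair.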

Additional observations from a re-analysis of the deposited data

Results flagged for a closer look

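The step of a gene from the cortex to a stripe of the outer medulla differed between normal and ischemic sections in 7 cases by the test of that difference (edgeR's quasi-likelihood test, adjusted p under 0.05). On the log2 scale, ischemic minus normal, the differences were 1.84 for Car2, 0.76 for Car15 and -0.73 for Car14 in the outer stripe, and 2.13 for Car2, 1.60 for Car15, 0.79 for Slc9a3 and -0.55 for Slc4a4 in the inner stripe. Of the 14 alternatives, both differences of Car2 were called in 14, those of Car15 in 11 for the outer and 13 for the inner stripe, that of Slc9a3 in 10, and those of Car14 and Slc4a4 in only 4 each. All groups had 2 sections, so no section could be tested as standing apart from its group.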

How the results depend on the processing

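Of 1099 values of single genes under the alternatives, 988 kept their direction and their side of the threshold, 61 were no longer called, 33 became called and 17 turned in direction. Leaving out 1 section leaves 1 section of that condition, which is assumed to vary like the others. Without 1 section, genes higher ranged from 3261 to 5534 and genes lower from 3232 to 5343 over whole sections, and the genes of the group called from 4 to 7 over whole sections, 3 to 7 in the cortex, 4 to 6 in the outer stripe, 6 to 7 in the inner stripe, 5 to 7 in the inner medulla and 3 to 5 in the pelvis. They ranged from 6 to 7 in the outer stripe and inner medulla against the cortex of normal sections, with 7 throughout in the inner stripe, and from 1 to 3 and from 2 to 5 for the change of the outer and inner stripe with ischemia.

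Library totals alone gave 2829 genes lower over whole sections and 3 genes of the group called in the cortex, and 67.0% of its calls over whole sections were higher, against 51.1% with TMM, with the median of all genes at 0.31 against 0.04. By zone the share of calls that were higher moved with this scaling from 50.4% to 67.6% in the cortex, 48.2% to 69.3% in the outer stripe, 46.1% to 66.7% in the inner stripe and 39.6% to 50.5% in the inner medulla, and in normal sections against the cortex from 54.9% to 31.6%, 48.7% to 76.2% and 48.8% to 78.1% in the outer stripe, inner stripe and inner medulla. For the change of the step with ischemia it moved from 37.5% to 61.5% in the outer and from 27.0% to 40.6% in the inner stripe. For the change of the step with ischemia, DESeq2 and the fit with no section block each gave 1 in the outer and 2 in the inner stripe, and 2 were called in the inner stripe with each spot taken without its neighbours. The cause was not tested.

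Turned in direction, ischemic against normal, were Slc9a3 in the inner stripe (0.089 with library totals; -0.48 to 0.14 with 1 section left out), and with each spot without its neighbours Slc9a3 in the inner medulla (-0.0013) and Car12 in the pelvis (-0.73). Car15 of the normal inner stripe against cortex turned to 0.18 under that rule. For the change of the outer stripe, Car4 turned to -0.0055 without normal section 1 (-0.0055 to 0.61 over the sections left out), Car14 to 0.15 without neighbours, and Car12 and Slc4a4 to -0.017 and -0.068 with the glomerular and distal cortex list. For the inner stripe, Car12 turned to 0.0048 with DESeq2's size factors, 0.083 with library totals, 0.070 without the filter, 0.19 without normal section 2, 0.24 without ischemic section 1 (-0.37 to 0.24 over the sections left out), 0.017 with the other cortex list and 0.024 with the inner medulla list without Cryab, the last chosen after seeing the data. Car14 turned to 0.029 there without ischemic section 1 (-0.74 to 0.029). Of the values that turned, those of Car14 in the outer stripe and Car15 in the normal inner stripe had been called.

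Samples share only a replicate number, and same-numbered sections had a correlation of 0.22 of their deviations from the group means. With the replicate block, 5197 genes were higher and 4892 lower over whole sections and 7 of the 7 genes were called, and in the cortex Car2 became called (-0.40, adjusted p = 0.0411 by edgeR's quasi-likelihood test). Depth limits Car14 in the ischemic inner medulla and pelvis, with 1 or 2 counts in a section. The test of the change of the outer stripe with ischemia recovered 56 of 200 simulated 2-fold changes, and what limits it was not tested.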
